A study of Mus musculus with 12 samples.

Results

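The chemokine genes of mouse skin were described in normal skin, in fibrotic skin at 6 and 20 weeks, and in fibrotic skin that received a transplant of fibroblasts. Members were all rows of the table whose symbol is Ccl, Cxcl, Ccr or Cxcr followed by a number, with Xcl1, Xcr1, Cx3cl1 and Cx3cr1. This gave 58 of 23359 genes, 38 ligands and 20 receptors. The receptor Cxcr7 is listed in RefSeq as Ackr3. All 12 libraries were made from polyadenylated RNA of skin of C3H/HeJ mice, an inbred strain that carries a defective Tlr4, the receptor for bacterial endotoxin. The 4 groups of 3 libraries each were normal skin (no time given), skin labelled as fibrotic at 6 weeks, the same at 20 weeks, and skin at 20 weeks labelled as treated with CD36highCD90+ cells, which the series describes as transplanted fibroblasts. CD36 is a fatty acid receptor and CD90 a surface protein of fibroblasts. The labels leave unstated the means of inducing fibrosis, the origin of the transplanted cells, any mock transplant in fibrotic mice, and the animal behind each library. The p-values therefore measure the spread between these samples, which may be technical. Values are FPKM, fragments scaled to transcript length and library size. Whole skin was sequenced, so fewer cells of a type and less RNA per cell cannot be told apart.

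Chemokines are small secreted proteins that bind receptors with a bundle of membrane-spanning helices on leukocytes and other cells, and cells move up their gradient. Inflammatory chemokines are switched on in keratinocytes, fibroblasts, endothelium and leukocytes by cytokines such as interleukin-1, tumour necrosis factor and interferons, while homeostatic chemokines are made in resting tissue and position resident and recirculating cells. Many ligands share receptors, and each leukocyte class carries its own set: Cxcr2 on neutrophils, Ccr2 on inflammatory monocytes, Cxcr3 on activated T cells.

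Of the 58 members, 45 passed the filter of at least 1 FPKM in at least 3 libraries and were tested, 32 ligands and 13 receptors. For 6 of these 45, the filter was met only with the help of a single group in which they were high: Cxcl1, Cxcl2 and Cxcl3 needed the 6-week libraries, Ccr9 and Cxcr3 the 20-week libraries, and Cxcl5 needed both of these groups. The counts below are therefore descriptions of the genes that passed. For these 6, a comparison with the group that let them pass is also a description, and so is its p-value. The threshold for a call was an adjusted p under 0.05 in limma on log2(FPKM + 1), and every log2 fold change below is on that scale, which understates the change of low genes.

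In skin at 6 weeks, 26 of the 45 tested members (57.8%) were called against normal skin, beside 39.3% of the 13761 genes tested. Of these, 21 were higher (46.7%, beside 17.6% of all tested genes) and 5 were lower (11.1%, beside 21.7%). The ligands gave 13 higher and 3 lower of 32, and the receptors 8 higher and 2 lower of 13. The median log2 fold change was 1.49 for ligands and 0.77 for receptors, beside -0.05 for all tested genes. At 20 weeks against the same normal libraries, 17 of 45 members (37.8%) were called, beside 33.5% of all genes. There 12 were higher (26.7%, beside 15.3%) and 5 lower (11.1%, beside 18.2%), and the median was 0.69 for ligands and 0.60 for receptors, beside -0.04 for all tested genes.

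**Figure D1:**
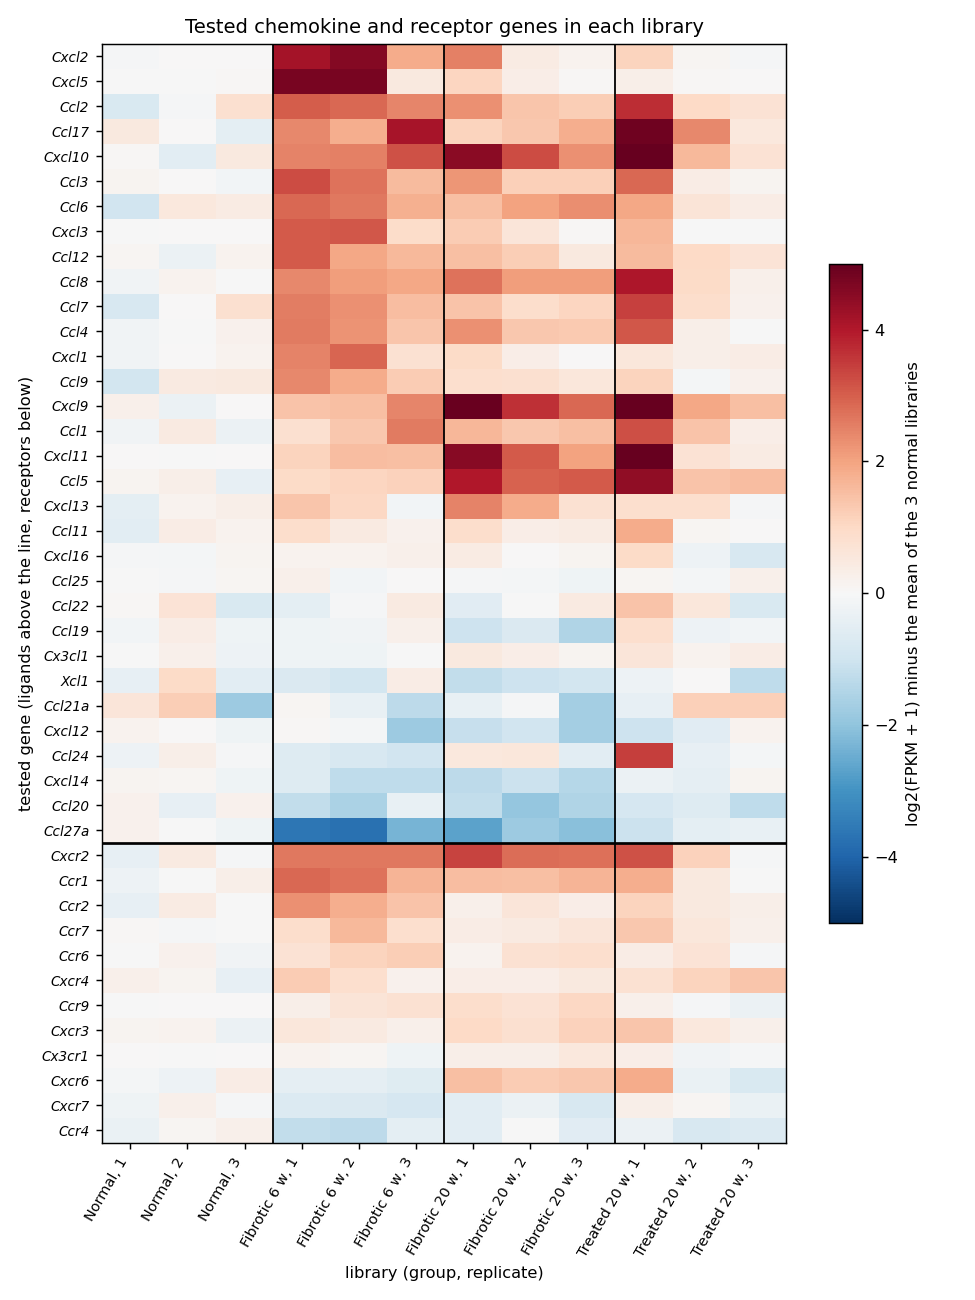
Heat map of 44 tested members (rows, ligands above the heavy line) in the 12 libraries (columns). Colour is log2(FPKM + 1) minus the mean of the 3 normal libraries, with the scale ending at 5 in either direction, and ligands and receptors are each ordered by their 6-week log2 fold change. Most upper rows are red in the 6-week and 20-week libraries and in treated replicate 1, while treated replicates 2 and 3 are paler.

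The libraries differed in ways that touch the members. Summed ligand FPKM ran from 595 to 754 in normal skin, from 799.6 to 1133 at 6 weeks and from 776 to 1193 at 20 weeks. In treated skin it was 2758 in replicate 1 and 721 and 697 in replicates 2 and 3. Across tested genes, treated replicate 1 had a mean Pearson r of 0.932 with the fibrotic 20-week libraries and of 0.851 with normal skin, against 0.847 and 0.893 for treated replicate 3 (correlations across genes, which are not independent). It stands apart within its group, and results on treated skin are given with and without it. The median SD of a tested member was 0.69 on the log2 scale in treated skin, 0.48 at 6 weeks, 0.36 at 20 weeks and 0.27 in normal skin. Libraries also differed in muscle. Summed FPKM of 4 skeletal muscle markers was 2195, 80.9 and 3155 in normal skin and 600, 27.1 and 1015 at 6 weeks. It was 354, 890 and 1611.5 at 20 weeks and 45.0, 731 and 1546 in treated skin. Muscle RNA shares the library total, and its part in the member values was not tested. Of 5 epidermis markers, Krt5, Krt14 and Lor were high in every library, with Krt5 at 2279 FPKM or more. Krt1 was listed at 0 in all 3 fibrotic libraries of 20 weeks and Krt10 in 2 of them, while both were at 867 FPKM or more in each library where they were not at 0. Since a 0 can thus stand for a gene that is abundant elsewhere, a member at 0 is given here only as listed at 0.

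Marker levels of some leukocytes moved with the groups, while those of others did not. Summed dendritic and Langerhans cell markers were at 33.5 to 52.5 FPKM in normal skin, 35.8 to 51.3 at 6 weeks and 24.4 to 62.9 at 20 weeks. In treated skin they were at 28.5 to 48.0 FPKM. Summed eosinophil markers also overlapped normal skin in every other group. Summed FPKM of 7 macrophage and monocyte markers was 92.5 to 184 in normal skin, 263 to 699 at 6 weeks, 292 to 321 at 20 weeks and 159 to 199 in treated skin. None of the 7 was at 0 in any library, and 6 of 7 tested were called higher at 6 weeks (85.7%, beside 17.6% of all tested genes). At 20 weeks 3 of 7 were called higher (42.9%, beside 15.3%). Lyz2 made the largest part of this sum, such as 532 of 699 FPKM in 6-week replicate 1. Of 7 neutrophil markers, summed at 14.9 to 61.3 FPKM in normal skin and 1318 to 4032 at 6 weeks, 380 to 3231 at 20 weeks and 30.1 to 1216 in treated skin, nearly all came from S100a8 and S100a9, which keratinocytes also make. The granule genes Mpo, Elane, Ngp and Camp were listed at 0 in at least 1 library, and only 3 of the 7 were tested. The 7 T and NK cell markers summed to 42.6 to 70.6 FPKM in normal skin, 13.9 to 31.3 at 6 weeks, 47.8 to 58.2 at 20 weeks and 25.6 to 76.7 in treated skin, with none at 0 in any library. The part of these markers in the results below was not tested.

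The neutrophil-attracting ligands Cxcl1, Cxcl2, Cxcl3 and Cxcl5 sit together on chr5:90759360-90905938 (GENCODE M21 on GRCm38) and bind Cxcr2. All 4 rose at 6 weeks, a group that they needed to pass the filter, so their p-values there are descriptions. The RefSeq promoters (GRCm38.p6) of Cxcl1, Cxcl2 and Cxcl3 hold the same 9 letters, GGAATTTCC, a match to the binding motif of NF-kB, the transcription factor that interleukin-1 and tumour necrosis factor switch on. The stretch from 120 bases before each start to the start is shown for these 3 neighbours, 5′ to 3′ on the plus strand. They were chosen because they carry the same letters and rose at 6 weeks, so their rise is no test of the motif. Capitals mark the motif. The coordinates are chr5:90891125-90891244 for Cxcl1, chr5:90903779-90903898 for Cxcl2 and chr5:90785981-90786100 for Cxcl3.
Cxcl1: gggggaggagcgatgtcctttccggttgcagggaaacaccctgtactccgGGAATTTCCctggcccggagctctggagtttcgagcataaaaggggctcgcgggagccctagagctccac
Cxcl2: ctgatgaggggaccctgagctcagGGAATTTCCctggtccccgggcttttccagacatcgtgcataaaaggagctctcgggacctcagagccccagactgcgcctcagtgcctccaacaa
Cxcl3: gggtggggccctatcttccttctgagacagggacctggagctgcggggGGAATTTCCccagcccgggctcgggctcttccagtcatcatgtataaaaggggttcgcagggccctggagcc
The motif lies 70 to 62 bases before the start of Cxcl1, 96 to 88 before Cxcl2 and 72 to 64 before Cxcl3. Searched on both strands in the 250 bases before the start, GGAATTTCC was in 94 of 32851 RefSeq mouse promoters (0.286%) and in 5 of the 42 member genes with a promoter, those 3 with Cxcl10 and Ccr3. Cxcl5, which also rose, was not among these 5, and Ccr3 did not pass the filter. A match is a description of the letters in that window, and its part in the values was not tested.

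Cxcl2 had 0, 0.0612 and 0.0586 FPKM in normal skin (0 is as listed), 17.4, 24.3 and 2.74 at 6 weeks and 4.91, 0.367 and 0.184 at 20 weeks. The 6-week libraries all lay above the normal ones, replicate 3 far below the other two, and only 20-week replicate 1 reached the 6-week range. The 6-week log2 fold change was 3.53 ± 0.75 (SE, adjusted p = 0.00542), and 1.03 ± 0.75 at 20 weeks (adjusted p = 0.308). Cxcl5, a ligand that epithelial cells make, was at 0.0148, 0 and 0.061 FPKM in normal skin, at 26.7, 26.6 and 0.423 at 6 weeks, and at 1.17, 0.276 and 0.055 at 20 weeks. Replicates 1 and 2 of the 6-week group were thus high and replicate 3 stood below 20-week replicate 1. Without 6-week replicate 3 the 6-week fold changes were larger, 4.38 for Cxcl2 and 4.75 for Cxcl5. With it, the rise of Cxcl5 was 3.33 ± 0.92 at 6 weeks (adjusted p = 0.0175), and it was 2.61 and not called without 6-week replicate 2 (adjusted p = 0.0708) or replicate 1 (0.0659).

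Cxcl1 went from 0.234, 0.388 and 0.551 FPKM in normal skin to 6.74, 9.40 and 1.34 at 6 weeks, a log2 fold change of 2.05 ± 0.46 (adjusted p = 0.00715), or 2.70 without 6-week replicate 3. At 20 weeks it stood at 1.68, 0.734 and 0.387 FPKM, overlapping normal skin. Cxcl3 gave 0, 0.0342 and 0.0341 FPKM in normal skin and 7.49, 7.70 and 0.918 at 6 weeks (2.35 ± 0.62, adjusted p = 0.0146, or 3.07 without 6-week replicate 3). Its 20-week values of 1.49, 0.545 and 0.0669 FPKM lay above the normal ones but were not called, and its 6-week call was lost without 6-week replicate 1 or 2 (adjusted p up to 0.0606). In treated skin the 4 ligands were low, between 0 and 2.26 FPKM in all 3 libraries, with replicate 1 highest for each.

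The cytokine Il1b, an inducer of these ligands, was also far lower in 6-week replicate 3 than in the other replicates, with 84.9, 75.3 and 6.96 FPKM against 1.05, 1.89 and 1.09 in normal skin. The inducers Tnf (3.37, 3.60 and 3.21 FPKM) and Il1a (15.0, 17.3 and 16.1 FPKM) were near even across the 6-week libraries. The part of any inducer in the ligand values was not tested. The receptor of the neutrophil-attracting ligands was called at both times. Cxcr2, the receptor that carries neutrophils toward them, was at 0.655, 2.02 and 1.12 FPKM in normal skin, 12.5, 12.7 and 12.5 at 6 weeks, 22.0, 14.3 and 13.9 at 20 weeks and 18.7, 3.93 and 1.11 in treated skin. It was high and even in all 6 fibrotic libraries, above every normal one, with log2 fold changes of 2.63 ± 0.62 at 6 weeks (adjusted p = 0.00912) and 2.98 ± 0.62 at 20 weeks (adjusted p = 0.00635). The granulocyte receptor gene Csf3r, another neutrophil marker, had 7.25, 5.98 and 1.01 FPKM at 6 weeks but 1.01, 0.69 and 0.61 at 20 weeks, against 0.29 to 0.55 in normal skin. The second neutrophil receptor, Cxcr1, stayed between 0 and 0.109 FPKM in all 12 libraries and was not tested.

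**Figure D2:**
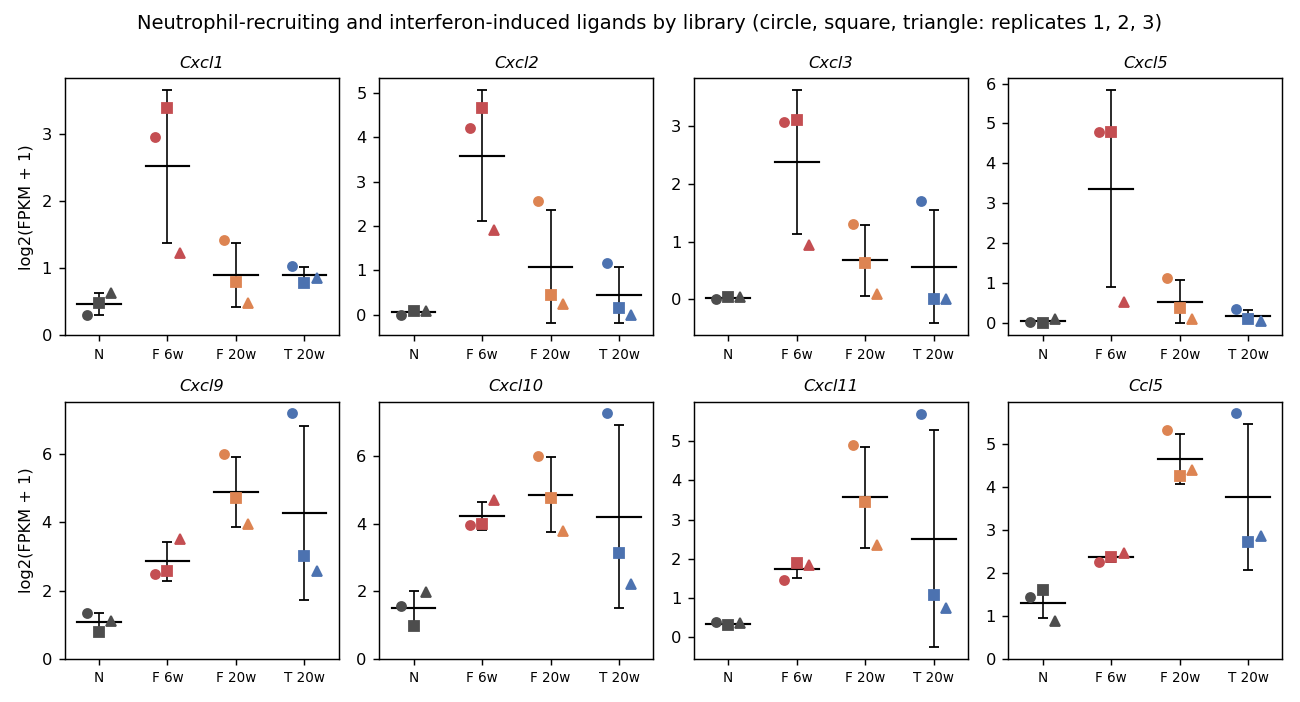
Neutrophil-attracting ligands (upper row) and interferon-induced ligands with Ccl5 (lower row), as log2(FPKM + 1) in each library. Circle, square and triangle are replicates 1, 2 and 3, the line is the group mean and the bar the SD (3 libraries per group). The upper row is highest at 6 weeks in replicates 1 and 2, and in the lower row treated replicate 1 is the highest library in each panel.

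Cxcl9, Cxcl10 and Cxcl11 are interferon-induced ligands of Cxcr3 and draw activated T cells. Their genes lie side by side on chr5:92321347-92365485, where the reference annotation calls Cxcl11 a polymorphic pseudogene. All 3 rose at 20 weeks against normal skin, and none was called at 6 weeks. Cxcl9 was at 1.52, 0.722 and 1.15 FPKM in normal skin, 4.58, 4.96 and 10.4 at 6 weeks, 63.0, 25.2 and 14.5 at 20 weeks, and 147, 7.05 and 5.00 in treated skin. Normal, 6-week and 20-week libraries did not overlap and rose in that order. The log2 fold change against normal skin was 1.78 ± 1.02 at 6 weeks (adjusted p = 0.187) and 3.82 ± 1.02 at 20 weeks (adjusted p = 0.018). The direct difference between 20 and 6 weeks was 2.04 ± 1.02 (adjusted p = 0.299).

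Cxcl10 gave 1.94, 0.975 and 2.93 FPKM in normal skin, 14.7, 15.1 and 24.9 at 6 weeks, 63.8, 26.4 and 12.8 at 20 weeks, and 156, 7.81 and 3.65 in treated skin. Every fibrotic library was above every normal one, and the 6-week and 20-week ranges overlapped. Its log2 fold change was 2.72 ± 1.08 at 6 weeks (adjusted p = 0.0688) and 3.36 ± 1.08 at 20 weeks (adjusted p = 0.0372). Cxcl11 stood at 0.307, 0.246 and 0.280 FPKM in normal skin, 1.77, 2.73 and 2.61 at 6 weeks and 29.0, 9.84 and 4.11 at 20 weeks, with a log2 fold change of 3.21 ± 1.10 at 20 weeks (adjusted p = 0.0468). In treated skin Cxcl11 was at 50.8, 1.13 and 0.684 FPKM, so that replicate 1 was above and the other two below all 20-week fibrotic libraries. Without 20-week replicate 1 the 20-week calls of Cxcl9 (adjusted p = 0.0689), Cxcl10 (0.125) and Cxcl11 (0.155, fold change 2.54) were lost, and without 20-week replicate 3 Cxcl11 was at 3.82. Those of Cxcl10 and Cxcl11 were also lost without any 1 of the normal libraries or without 20-week replicate 2.

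The 250 bases before the start of Cxcl10 are shown because, alone among the promoters of the members in the table, they hold both the NF-kB letters and GAAANNGAA, the core of the motif bound by interferon regulatory factors. They are chr5:92348890-92349139 on the minus strand (RefSeq, GRCm38.p6), 5′ to 3′, and capitals mark the interferon motif first and the reverse complement of GGAATTTCC second.
Cxcl10: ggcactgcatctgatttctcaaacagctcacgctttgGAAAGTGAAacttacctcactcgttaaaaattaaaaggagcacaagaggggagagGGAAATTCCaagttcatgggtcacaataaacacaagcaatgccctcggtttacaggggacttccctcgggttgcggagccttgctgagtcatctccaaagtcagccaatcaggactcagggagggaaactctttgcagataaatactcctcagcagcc
The interferon motif lies 213 to 205 bases before the start and the NF-kB letters 158 to 150 before it. On both strands GAAANNGAA was in 7.13% of all promoters of this length and in 8 of 49 member promoters. These belong to 8 of 42 member genes: Ccl1, Ccl19, Ccl3, Ccr2, Cxcl10, Cxcl14, Cxcl9 and Cxcr1. A motif of the STAT factors, TTCNNNGAA, was in 7.02% of all promoters and in 4 of 49 member promoters, those of Ccl17, Ccr1l1, Ccr6 and Cxcl14. No match of these motifs overlapped a match of another.

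Ccl5, a leukocyte-attracting ligand that T cells make in quantity, had the time course of the interferon-induced set. It was at 1.73, 2.01 and 0.853 FPKM in normal skin, 3.78, 4.20 and 4.53 at 6 weeks and 39.1, 18.2 and 19.9 at 20 weeks, and these 3 ranges did not overlap. The log2 fold change was 1.06 ± 0.67 at 6 weeks (adjusted p = 0.226) and 3.35 ± 0.67 at 20 weeks (adjusted p = 0.00506), and this 20-week call held without any 1 of the 6 libraries. Treated skin had 52.1, 5.62 and 6.26 FPKM of Ccl5. All 3 treated libraries lay above normal skin, with a log2 fold change of 2.46 ± 0.67 (adjusted p = 0.0286), a call that was lost without any 1 of the normal libraries (adjusted p up to 0.104). Without treated replicate 1 the fold change was 1.48 ± 0.30 (adjusted p = 0.0129).

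Cxcr3, the receptor of the interferon-induced ligands, rose with them at 20 weeks. It needed the 20-week libraries to pass the filter, so its p-value is a description. It had 0.421, 0.458 and 0.0762 FPKM in normal skin, 0.921, 0.793 and 0.541 at 6 weeks, 1.58, 1.28 and 1.92 at 20 weeks and 2.44, 0.883 and 0.544 in treated skin. The 20-week libraries were above all normal and 6-week ones, with a log2 fold change against normal skin of 0.98 ± 0.27 (adjusted p = 0.0192), lost without normal replicate 3, 20-week replicate 1 or 20-week replicate 3 (adjusted p up to 0.0689). The T cell gene Cd8a went from 0.13 FPKM or less in normal skin to 7.97, 6.67 and 8.90 at 20 weeks and to 12.2, 0.68 and 0.18 in treated skin. It was the only 1 of 6 tested T and NK cell markers called at 20 weeks (16.7%, beside 33.5% of all tested genes). The T cell receptor chains Cd3e and Cd3g had lower means at 20 weeks (5.27 and 17.4 FPKM) than in normal skin (8.90 and 29.8), and the median of the 6 was 0.23. Ifng, the interferon of T and NK cells, had 1.83, 1.06 and 1.26 FPKM at 20 weeks, 0.19 or less in each normal and 6-week library, and 5.02, 0.35 and 1.71 in treated skin.

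Cxcr6 marks resident memory T cells and binds Cxcl16. Its values were 3.90, 3.37 and 5.84 FPKM in normal skin, 2.83, 2.82 and 2.42 at 6 weeks, 14.0, 11.8 and 12.3 at 20 weeks and 18.1, 3.21 and 2.15 in treated skin. All 6-week libraries were below and all 20-week libraries above the normal ones. The differences from normal skin of -0.52 at 6 weeks and 1.38 at 20 weeks, and the difference of 1.89 ± 0.53 between them, were not called (adjusted p = 0.452, 0.067 and 0.118). The membrane-bound ligand Cxcl16 was nearly even, at 33.6, 33.6 and 39.6 FPKM in normal skin, 40.0, 40.6 and 42.7 at 6 weeks and 47.0, 35.8 and 38.8 at 20 weeks. Treated skin had 70.6, 29.8 and 20.0 FPKM of Cxcl16.

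The monocyte-attracting ligands Ccl2, Ccl7 and Ccl12 act through Ccr2 and other receptors. Their genes lie in a cluster on chr11:82035571-82305690 with Ccl8, the eosinophil ligand Ccl11 and Ccl1. Ccl2, Ccl7, Ccl12 and Ccl8 rose at 6 weeks, and of these 4 only Ccl8 passed the test at 20 weeks. Ccl2 was at 2.35, 4.53 and 8.99 FPKM in normal skin, 45.6, 41.2 and 29.9 at 6 weeks and 26.6, 13.7 and 12.4 at 20 weeks. These ranges did not overlap, and the log2 fold change was 2.79 ± 0.70 at 6 weeks (adjusted p = 0.0115) and 1.63 ± 0.70 at 20 weeks (adjusted p = 0.0957). Treated skin had 71.97, 10.2 and 8.46 FPKM of Ccl2, replicate 1 above every other library.

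Ccl12 went from 1.09, 0.580 and 1.18 FPKM in normal skin to 15.2, 6.45 and 5.01 at 6 weeks, a log2 fold change of 2.22 ± 0.39 (adjusted p = 0.00213), and stood at 4.42, 3.52 and 1.73 at 20 weeks and 4.80, 2.83 and 2.11 in treated skin. All 9 libraries outside the normal group were above it. Ccl7 was at 2.40, 4.92 and 9.12 FPKM in normal skin, 34.1, 27.9 and 16.3 at 6 weeks, 14.9, 9.96 and 11.5 at 20 weeks and 62.5, 9.93 and 5.81 in treated skin. Its rise of 2.14 ± 0.71 at 6 weeks (adjusted p = 0.0363) was not called without normal replicate 1 or 2 or 6-week replicate 1 or 2 (adjusted p up to 0.125).

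Ccl8 became the most abundant ligand of fibrotic skin. Its level was 85.8, 109 and 94.2 FPKM in normal skin, 509, 411 and 374 at 6 weeks, 635, 407 and 406 at 20 weeks and 1586, 187 and 116 in treated skin. Every library of the other groups was above the normal ones. The log2 fold change was 2.15 ± 0.75 at 6 weeks (adjusted p = 0.0432) and 2.29 ± 0.75 at 20 weeks (adjusted p = 0.0389). Both calls were lost whichever of the normal, 6-week or 20-week libraries compared was left out (adjusted p up to 0.108 and 0.114), while the fold change stayed between 2.02 and 2.24 at 6 weeks. Those fits kept the widely spread treated libraries in the shared estimate of spread. A fit of the compared libraries alone kept both calls. Over all alternatives the lowest adjusted p in limma was 0.000363 at 6 weeks and 0.000688 at 20 weeks. Ccl8 made up 12.1% to 15.8% of the summed ligand FPKM in normal skin, 43.6% to 46.8% at 6 weeks and 47.5% to 53.3% at 20 weeks. In treated skin its share was 57.5% in replicate 1, 26.0% in replicate 2 and 16.7% in replicate 3.

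A second cluster, on chr11:83525778-83664683, holds Ccl3, Ccl4, Ccl5, Ccl6 and Ccl9, ligands made largely by macrophages and other leukocytes. Apart from Ccl5, described above, they rose at 6 weeks. Ccl6 had 5.405, 16.7 and 15.3 FPKM in normal skin, 88.9, 74.4 and 40.9 at 6 weeks, 33.4, 48.0 and 61.2 at 20 weeks and 46.1, 18.2 and 14.8 in treated skin. All fibrotic libraries were above the normal ones, by 2.42 ± 0.50 at 6 weeks (adjusted p = 0.0048) and 1.94 ± 0.50 at 20 weeks (adjusted p = 0.0152, lost without normal replicate 1, at 0.0531, or 20-week replicate 3). Ccl9 stood at 1.54, 5.56 and 5.69 FPKM in normal skin, 24.2, 16.3 and 10.6 at 6 weeks, 7.71, 7.28 and 6.09 at 20 weeks and 9.51, 3.49 and 4.53 in treated skin, with a rise of 1.84 ± 0.43 at 6 weeks (adjusted p = 0.0085).

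Ccl3 and Ccl4, the macrophage inflammatory proteins, were near 0 in normal skin. Ccl3 was at 0.260, 0.169 and 0.0606 FPKM there, at 10.0, 6.53 and 2.47 at 6 weeks, at 4.33, 1.68 and 1.65 at 20 weeks and at 7.58, 0.517 and 0.265 in treated skin. Ccl4 ran from 0.122, 0.247 and 0.481 FPKM in normal skin to 6.79, 5.12 and 2.38 at 6 weeks, with 5.16, 2.26 and 2.18 at 20 weeks and 9.89, 0.562 and 0.243 in treated skin. For both, all 6 fibrotic libraries were above all normal ones, and treated replicate 1 stood with them. The 6-week log2 fold changes were 2.51 ± 0.67 for Ccl3 (adjusted p = 0.0151) and 2.09 ± 0.70 for Ccl4 (adjusted p = 0.0369). The Ccl3 call was lost without 6-week replicate 1 or 2 (adjusted p up to 0.0572). That of Ccl4 was lost without any 1 of the normal libraries or those same 6-week replicates (adjusted p up to 0.11).

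The monocyte and macrophage receptors Ccr2 and Ccr1 rose with these ligands. Ccr2, the receptor of Ccl2, Ccl7 and Ccl12, was at 1.56, 3.61 and 2.43 FPKM in normal skin, 15.7, 11.2 and 8.17 at 6 weeks, 3.11, 4.24 and 3.26 at 20 weeks and 6.32, 3.75 and 3.19 in treated skin. The 6-week libraries lay above all others, by 1.84 ± 0.28 against normal skin (adjusted p = 0.0012), whereas the 20-week difference from normal skin was 0.40 ± 0.28 (adjusted p = 0.303). Between 20 and 6 weeks Ccr2 differed by -1.45 ± 0.28 (adjusted p = 0.0783), the smallest adjusted p of any member in that comparison.

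Ccr1 had 0.206, 0.392 and 0.728 FPKM in normal skin, 9.39, 8.40 and 3.61 at 6 weeks, 3.15, 3.09 and 3.59 at 20 weeks and 4.01, 1.01 and 0.412 in treated skin. It binds Ccl3, Ccl5, Ccl6 and Ccl9 among others. The 3 ranges of normal, 20-week and 6-week skin were separate and ascending in that order. Ccr1 rose by 2.43 ± 0.43 at 6 weeks (adjusted p = 0.00238) and by 1.58 ± 0.43 at 20 weeks (adjusted p = 0.0193). The 20-week call of Ccr1 was lost without normal replicate 1 or 20-week replicate 1 or 3 (adjusted p up to 0.063).

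**Figure D3:**
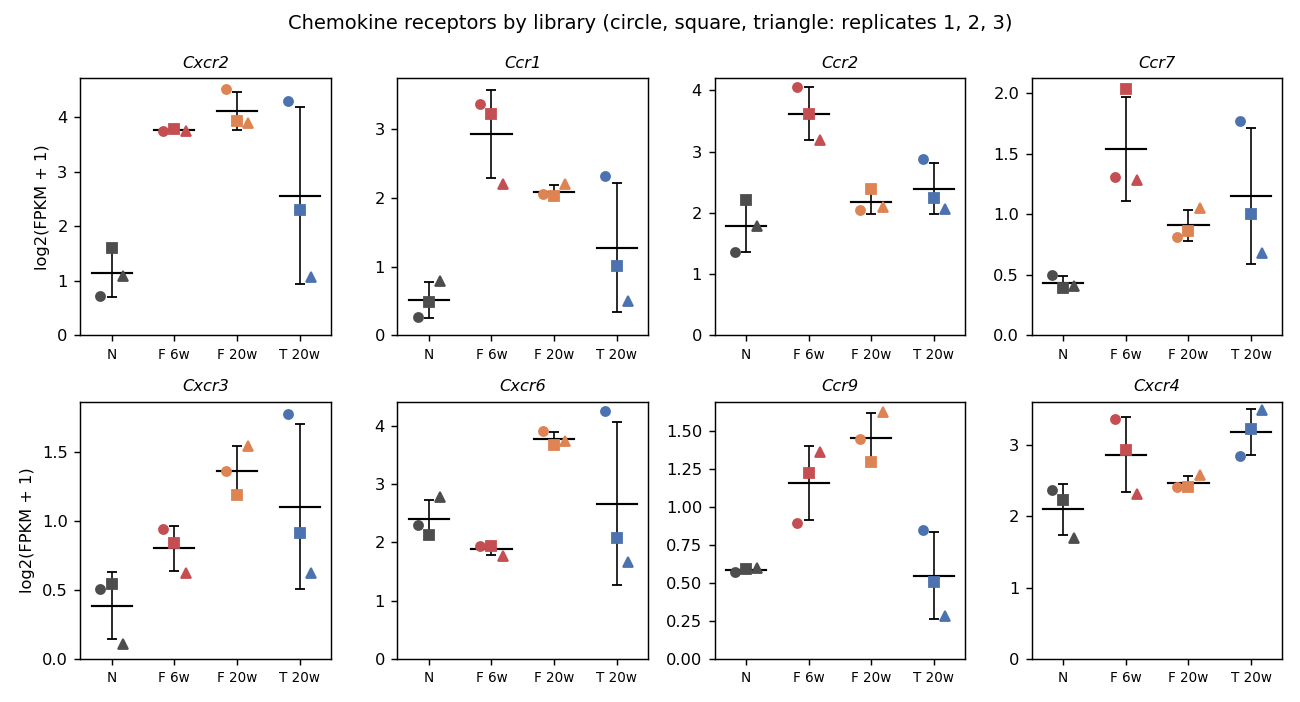
Receptors as log2(FPKM + 1) in each library, with replicates 1, 2 and 3 as circle, square and triangle, the group mean as a line and the SD as a bar (3 libraries per group). Ccr2 and Ccr1 are highest at 6 weeks, Cxcr6 and Cxcr3 are higher at 20 than at 6 weeks in every library, and Cxcr2 is level in the 6-week libraries at 12.5 to 12.7 FPKM.

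Ccl17 and Ccl22 are ligands of Ccr4 made by dendritic cells and macrophages. Ccl17 was at 1.83, 1.03 and 0.428 FPKM in normal skin, 9.59, 6.17 and 33.6 at 6 weeks, 3.32, 4.09 and 6.10 at 20 weeks and 58.4, 9.64 and 1.93 in treated skin. Unlike the neutrophil ligands, it was highest in 6-week replicate 3. Its 6-week rise of 2.77 ± 0.92 (adjusted p = 0.0369) was called when 6-week replicate 2 was left out but lost without any other of the 6 libraries (adjusted p up to 0.121, with a fold change of 2.11 without 6-week replicate 3). Ccl22 was not called anywhere: it had 7.13, 11.6 and 3.57 FPKM in normal skin, 4.48, 6.50 and 9.70 at 6 weeks, 4.20, 6.58 and 9.57 at 20 weeks and 19.9, 10.5 and 3.60 in treated skin.

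Their receptor Ccr4, found on skin-homing T cells, fell at 6 weeks, from 1.63, 2.51 and 2.96 FPKM to 0.415, 0.344 and 1.34, with 1.32, 2.24 and 1.25 at 20 weeks and 1.67, 0.895 and 1.07 in treated skin. All 6-week libraries were below all normal ones (log2 fold change -1.01 ± 0.25, adjusted p = 0.0117). Ccl1, a ligand of Ccr8, had 0.878, 1.87 and 0.739 FPKM in normal skin, 2.72, 4.29 and 11.8 at 6 weeks, 5.69, 4.39 and 5.06 at 20 weeks and 18.8, 4.63 and 1.65 in treated skin. Its fibrotic libraries were all above the normal ones, but the differences of 1.58 and 1.51 were not called (adjusted p = 0.0747 and 0.0941).

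The eosinophil ligands Ccl11 and Ccl24 were not called in any comparison in the fit of all 12 libraries. Ccl11 stood at 7.26, 14.6 and 12.5 FPKM in normal skin, 21.1, 15.6 and 12.8 at 6 weeks, 20.9, 14.3 and 15.2 at 20 weeks and 43.2, 12.04 and 11.1 in treated skin. Ccl24 stood at 1.88, 3.23 and 2.27 FPKM in normal skin, 1.19, 0.951 and 0.759 at 6 weeks, 3.90, 4.06 and 1.35 at 20 weeks and 36.9, 1.55 and 2.18 in treated skin. In both, treated replicate 1 was above all 11 other libraries. Their receptor Ccr3 did not pass the filter, with 0.00612 to 0.465 FPKM.

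Of the ligands that are highest in normal skin, the first and second, Ccl27a and Cxcl14, fell, whereas the third was Ccl8, which rose. Ccl27a, which keratinocytes make and which draws skin-homing T cells through Ccr10, was the highest ligand of normal skin. It had 239.5, 205 and 181 FPKM there, 15.9, 14.6 and 40.0 at 6 weeks, 31.95, 58.2 and 47.5 at 20 weeks and 99.1, 145 and 159.7 in treated skin. The mean was 208 ± 29.6 FPKM in normal skin and 23.5 ± 14.3 at 6 weeks (SD, n = 3 each). No fibrotic library reached a normal one, and all treated libraries lay between the fibrotic and the normal ranges.

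Ccl27a fell by 3.23 on the log2 scale at 6 weeks (SE 0.36, adjusted p = 0.000273) and by 2.19 at 20 weeks (SE 0.36, adjusted p = 0.0022), and both calls held without any 1 library. In treated against fibrotic skin at 20 weeks it rose by 1.55 ± 0.36 (adjusted p = 0.0229), and against normal skin treated skin differed by -0.65 ± 0.36 (adjusted p = 0.218). The treated against fibrotic call was lost without fibrotic 20-week replicate 1 or 3 or treated replicate 2 or 3 (adjusted p up to 0.0838). As a share of summed ligand FPKM Ccl27a went from 27.2% to 33.9% in normal skin to 1.41% to 5.01% at 6 weeks and 2.68% to 6.79% at 20 weeks. In treated skin the share was 3.59%, 20.2% and 22.9% in replicates 1 to 3. Reads of Ccl27a may be shared with the near-identical Ccl27b, which was listed at 0 in all 12 libraries, so the 2 rows cannot be told apart with certainty.

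Cxcl14, a ligand made by resting epithelium, was second in normal skin. It was at 141, 138 and 110.1 FPKM there, at 82.5, 52.6 and 52.9 at 6 weeks, at 51.1, 60.9 and 47.6 at 20 weeks and at 104, 93.1 and 141 in treated skin. All 6 fibrotic libraries were below all normal and all treated ones. Cxcl14 fell by 1.06 at 6 weeks (SE 0.21, adjusted p = 0.00369) and by 1.27 at 20 weeks (SE 0.21, adjusted p = 0.00218), and rose by 1.05 ± 0.21 in treated against fibrotic skin (adjusted p = 0.0178). That last call was lost without fibrotic 20-week replicate 1 or 3 or treated replicate 3 (adjusted p up to 0.0724). Keratinocyte and hair genes moved beside these ligands of the epidermis, leaving out those listed at 0. Of 41 cornified envelope genes, 34 were higher and 3 lower at 6 weeks, 35 higher and 2 lower at 20 weeks, and 0 higher and 24 lower in treated against fibrotic skin. Of 36 hair shaft genes, 22 were higher at 6 weeks, 2 at 20 weeks and 4 in treated against fibrotic skin, and 0 were lower. Of all tested genes, 17.6% were higher and 21.7% lower at 6 weeks, and 15.3% and 18.2% at 20 weeks. In treated against fibrotic skin these shares were 4.45% and 10.9%. The part of the keratinocyte and hair genes in the values of Ccl27a and Cxcl14 was not tested.

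**Figure D4:**
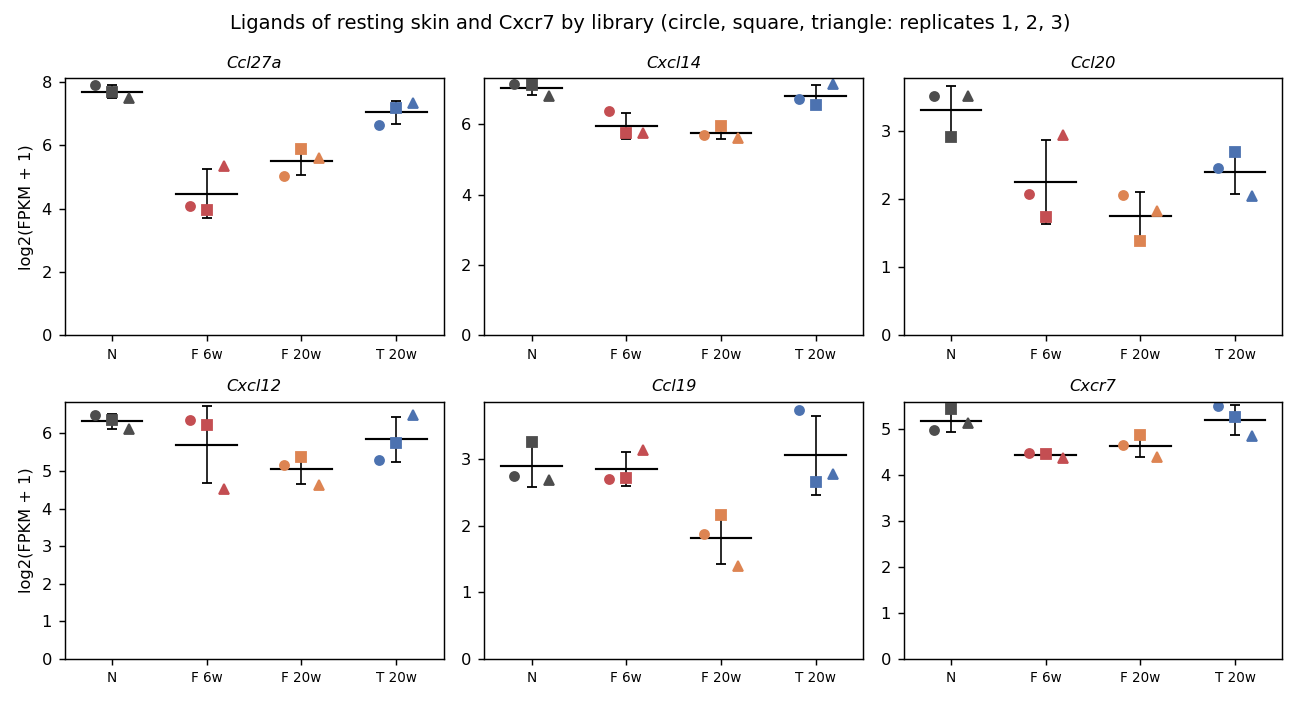
Ligands of resting skin and the scavenging receptor Cxcr7 as log2(FPKM + 1) in each library, with replicates 1, 2 and 3 as circle, square and triangle, the group mean as a line and the SD as a bar (3 libraries per group). Ccl27a and Cxcl14 are lower in all 6 fibrotic libraries than in any normal library, and their 3 treated libraries lie above the 20-week fibrotic ones.

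Ccl20 draws Ccr6-bearing dendritic and T cells to epithelium. It had 10.5, 6.55 and 10.4 FPKM in normal skin, 3.21, 2.34 and 6.68 at 6 weeks, 3.19, 1.61 and 2.54 at 20 weeks and 4.504, 5.45 and 3.12 in treated skin. At 6 weeks replicate 3 overlapped normal replicate 2, and at 20 weeks all libraries were below normal skin. It fell by 1.06 at 6 weeks (SE 0.32, adjusted p = 0.0237) and by 1.56 at 20 weeks (SE 0.32, adjusted p = 0.00557). The 6-week call was lost without normal replicate 1 or 3 or 6-week replicate 1 or 2 (adjusted p up to 0.0924).

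Its receptor Ccr6 rose at 6 weeks, from 0.314, 0.518 and 0.164 FPKM to 1.19, 1.89 and 2.13 (log2 fold change 1.03 ± 0.25, adjusted p = 0.00927). At 20 weeks it was at 0.484, 1.27 and 1.39 FPKM, and in treated skin at 0.730, 1.15 and 0.278, both overlapping normal skin.

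Ccl19 and Ccl21a guide dendritic cells and T cells to lymph nodes through Ccr7. Ccl19 had 5.71, 8.60 and 5.49 FPKM in normal skin, 5.502, 5.57 and 7.87 at 6 weeks, 2.67, 3.47 and 1.64 at 20 weeks and 12.4, 5.32 and 5.88 in treated skin. The 20-week libraries were the lowest 3 of all 12. Ccl19 fell by 1.09 at 20 weeks against normal skin (SE 0.30, adjusted p = 0.0207) and rose by 1.25 ± 0.30 in treated against fibrotic skin (adjusted p = 0.0256). The first call was lost without normal replicate 2 or 20-week replicate 1 or 3 (adjusted p up to 0.072). The second was lost without fibrotic 20-week replicate 1 or 3 or treated replicate 3 (adjusted p up to 0.0925). Ccl19 and Ccl21a have near-identical copies in the mouse genome, so their values are uncertain.

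Ccl21a, which lymphatic vessels secrete, spread widely: 52.1, 79.8 and 8.82 FPKM in normal skin, 35.8, 25.8 and 13.2 at 6 weeks, 26.2, 32.5 and 9.82 at 20 weeks and 24.9, 79.1 and 78.7 in treated skin, with no call. Ccr7 rose at 6 weeks, from 0.415, 0.309 and 0.326 FPKM to 1.47, 3.11 and 1.44 (1.11 ± 0.28, adjusted p = 0.0112). It stood at 0.753, 0.817 and 1.07 at 20 weeks and 2.42, 1.004 and 0.600 in treated skin, all above normal skin though not called.

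Cxcl12, a product of dermal fibroblasts and endothelium that holds Cxcr4-bearing cells in place, had 88.7, 80.8 and 68.2 FPKM in normal skin, 81.0, 73.3 and 21.9 at 6 weeks, 34.6, 40.4 and 23.6 at 20 weeks and 38.4, 52.7 and 88.3 in treated skin. All 20-week libraries were below normal skin, with a log2 fold change of -1.27 ± 0.46 that was not called (adjusted p = 0.0559). Its scavenging receptor Cxcr7 was the highest receptor in all 4 groups, at 30.7, 42.8 and 34.2 FPKM in normal skin, 21.6, 20.97 and 19.7 at 6 weeks, 24.3, 28.5 and 20.1 at 20 weeks and 44.3, 37.7 and 28.0 in treated skin. Cxcr7 fell by 0.75 at 6 weeks (SE 0.18, adjusted p = 0.00993) and by 0.55 at 20 weeks (SE 0.18, adjusted p = 0.042), without overlap with normal skin. The 20-week call was lost without normal replicate 2 or 3 or 20-week replicate 1 or 3 (adjusted p up to 0.136).

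The signalling receptor of Cxcl12, Cxcr4, was at 4.14, 3.70 and 2.23 FPKM in normal skin, 9.26, 6.58 and 3.96 at 6 weeks, 4.32, 4.31 and 4.96 at 20 weeks and 6.21, 8.32 and 10.2 in treated skin. Its treated libraries were all above the normal and the 20-week fibrotic ones. It rose by 0.77 ± 0.27 at 6 weeks (adjusted p = 0.0437) and by 1.09 ± 0.27 in treated against normal skin (adjusted p = 0.0206). The 6-week call was kept without 6-week replicate 3 but lost without any other of the 6 libraries (adjusted p up to 0.152), and the other was lost without normal replicate 3 or treated replicate 3 (adjusted p up to 0.0856).

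Cxcl13 draws B cells through Cxcr5. It had 0.196, 0.906 and 1.08 FPKM in normal skin, 3.33, 2.45 and 0.518 at 6 weeks, 8.45, 5.01 and 1.83 at 20 weeks and 2.03, 1.99 and 0.615 in treated skin. All 20-week libraries were above normal skin, by 1.69 ± 0.50 (adjusted p = 0.0263), a call lost without normal replicate 1 or 20-week replicate 1 or 2 (adjusted p up to 0.0973). Summed FPKM of 4 B cell markers was at most 1.31 in any library, none of them passed the filter, and Cxcr5 did not pass it either, at 0.0298 to 0.200 FPKM.

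Ccr9, known from gut-homing T cells, was low throughout. It needed the 20-week libraries to pass the filter, so its p-values with that group are descriptions. It was at 0.483, 0.506 and 0.515 FPKM in normal skin, 0.854, 1.34 and 1.57 at 6 weeks, 1.73, 1.45 and 2.08 at 20 weeks and 0.800, 0.422 and 0.215 in treated skin. It rose by 0.57 ± 0.18 at 6 weeks (adjusted p = 0.0266) and by 0.87 ± 0.18 at 20 weeks (adjusted p = 0.00541), and fell by 0.91 in treated against fibrotic skin (SE 0.18, adjusted p = 0.0176). Fibrotic libraries were all above normal ones, the 2 fibrotic groups overlapped, and treated values spanned those of normal skin. The 6-week call held without 6-week replicate 1 but was lost without any other of the 6 libraries (adjusted p up to 0.0875). The treated against fibrotic call of Ccr9 was lost without fibrotic 20-week replicate 1 or 3 or treated replicate 3 (adjusted p up to 0.072). Its ligand Ccl25 stayed between 0.725 and 1.43 FPKM in all 12 libraries.

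Cx3cl1, the membrane-anchored fractalkine of endothelium and epithelium, had 5.34, 6.70 and 4.45 FPKM in normal skin, 4.59, 4.58 and 5.41 at 6 weeks, 8.03, 7.10 and 6.15 at 20 weeks and 8.86, 6.18 and 7.33 in treated skin. Its receptor Cx3cr1, found on monocytes and tissue macrophages, ran from 0.876 to 2.11 FPKM. The 20-week libraries of Cx3cr1 (1.66, 1.66 and 2.11) were above all normal and 6-week ones, by 0.38 against normal skin (adjusted p = 0.0847). Xcl1, a ligand of cross-presenting dendritic cells made by T and NK cells, stood at 4.82, 14.0 and 4.40 FPKM in normal skin, 3.77, 3.12 and 9.12 at 6 weeks, 2.33, 2.82 and 3.13 at 20 weeks and 5.55, 6.94 and 2.1999 in treated skin. None of these 3 genes was called in any comparison.

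The 13 members that did not pass the filter were 6 ligands and 7 receptors. Ccl21b, Ccl21c, Ccl26 and Ccl27b were listed at 0 in all 12 libraries. Ccl28, an epithelial ligand of Ccr10, ran from 0.00556 to 0.0733 FPKM, and Cxcl17 from 0 to 2.16. Among receptors Ccr10, the receptor of Ccl27a, ran from 0.265 to 1.02 FPKM, Ccr8 from 0.0481 to 0.989, Xcr1, the receptor of Xcl1, from 0.189 to 1.08 and Ccr1l1 from 0 to 0.073.

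**Figure D5:**
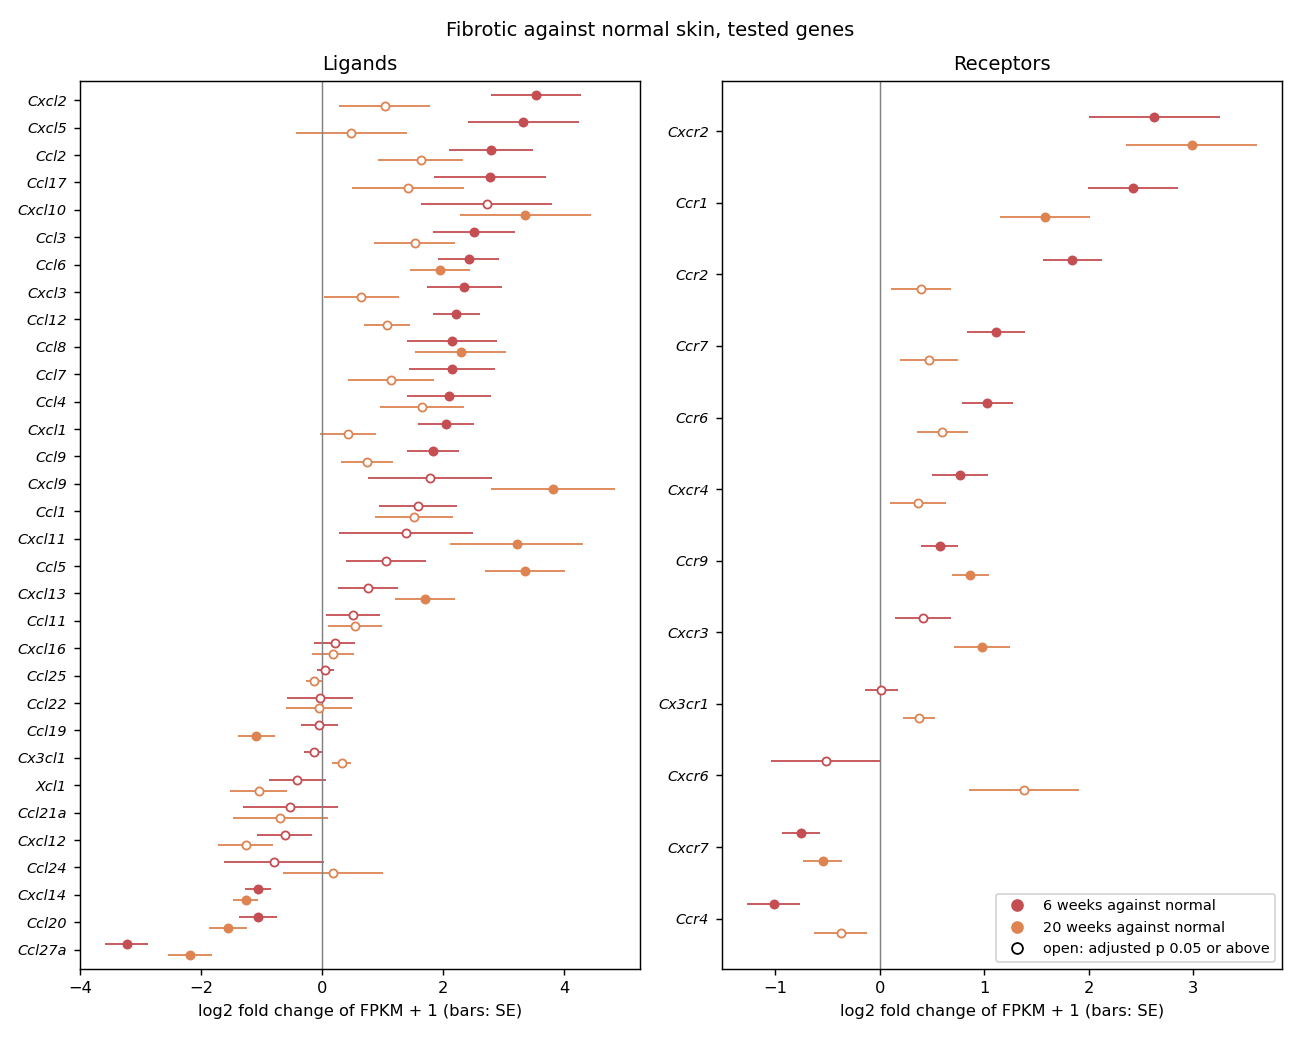
Log2 fold change of FPKM + 1 (horizontal axis, bars are SE) for 44 tested members in fibrotic against normal skin at 6 weeks (red) and 20 weeks (orange), with ligands on the left and receptors on the right, each ordered by the 6-week value. Open points have an adjusted p of 0.05 or above, and both contrasts share the 3 normal libraries. Cxcl2 is highest at 6 weeks (3.53), Cxcl9 at 20 weeks (3.82), and Ccl27a is lowest at both (-3.23 and -2.19).

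The 2 fibrotic time points were compared directly. Of the 45 tested members 0 were called (0.0%), beside 5 of all 13761 genes (0.0363%), of which 1 was higher at 20 weeks (0.00727%) and 4 lower (0.0291%). Without adjustment 16 members had a p under 0.05, of which 6 were higher at 20 weeks. The median log2 difference was -0.33 for ligands and 0.21 for receptors, beside 0.02 for all tested genes. At the extremes stood Cxcl5 (-2.85 ± 0.92, adjusted p = 0.147), Cxcl2 (-2.50 ± 0.75, adjusted p = 0.13) and, higher at 20 weeks, Ccl5 (2.29 ± 0.67, adjusted p = 0.123).

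Without 6-week replicate 3, in which the neutrophil-attracting ligands were low, 4 members were called between 20 and 6 weeks, beside 0.792% of all genes. These were Cxcl5 at -4.27 ± 0.26 (adjusted p = 0.0002), Cxcl1 at -2.27 ± 0.26 (adjusted p = 0.0117), Ccr2 at -1.66 ± 0.30 (adjusted p = 0.048) and Ccl27a at 1.49 ± 0.27 (adjusted p = 0.048). The library is singled out here by its low Cxcl1 and Cxcl5, among others, and both genes needed the 6-week group to pass the filter. Their calls without it were thus favoured in advance, and their p-values are descriptions. In a fit of all 6 fibrotic libraries alone, 3 members were called, namely Ccl5 (adjusted p = 0.0152), Ccr2 (0.026) and Cxcr6 (0.00168). The share of all genes called in that fit is not given here, so this count stands without a comparison.

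In treated against fibrotic skin at 20 weeks, the comparison that addresses the transplanted fibroblasts, 4 of 45 members (8.89%) were called, beside 15.3% of all tested genes. Those higher were the ligands Ccl27a, Cxcl14 and Ccl19 (6.67%, beside 4.45%), and the receptor Ccr9 was lower (2.22%, beside 10.9%). The median was 0.04 for ligands and -0.26 for receptors, beside -0.00 for all tested genes, and 8 members had an unadjusted p under 0.05. Of the 4 calls none held without 20-week fibrotic replicate 1, fibrotic replicate 3 or treated replicate 3. The adjusted p reached 0.0925 for Ccl19, 0.0838 for Ccl27a, 0.072 for Ccr9 and 0.0724 for Cxcl14, and Ccl27a was also lost without treated replicate 2.

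Several inflammatory ligands, though not all, set treated replicate 1 apart from the other replicates. For Ccl6, Cxcl1, Cxcl2, Cxcl5 and Cxcl13, replicate 1 lay inside the range of the 20-week fibrotic libraries. In replicate 1, Cxcl9, Cxcl10, Cxcl11, Ccl5, Ccl2, Ccl7 and Ccl8 were above every fibrotic library of 20 weeks, and in replicates 2 and 3 they were below every one of them. Without treated replicate 1, leaving 2 treated libraries, 20 members were called beside 37.9% of all genes, 4 higher (beside 17.7%) and 16 lower (beside 20.2%). Ccl27a, Cxcl14, Ccl19 and Cxcr4 were higher, by 1.75, 1.10, 0.91 and 0.89.

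The 16 that were lower without treated replicate 1 held the T cell attracting ligands Cxcl11 (-2.64 ± 0.56, adjusted p = 0.0058), Cxcl10 (-2.18, adjusted p = 0.016), Cxcl9 (-2.09, adjusted p = 0.0121) and Ccl5 (-1.87 ± 0.30, adjusted p = 0.0017). They also held Ccl8 (-1.67, adjusted p = 0.0013), the macrophage ligands Ccl4, Ccl6 and Ccl3, and Cxcl16. The receptors included Cxcr2 (-2.43 ± 0.36, adjusted p = 0.0011), Cxcr6 (-1.91 ± 0.19, adjusted p = 0.0003), Ccr1, Ccr9, Cxcr3 and Cx3cr1. With replicate 1 included, the same differences were -1.05 for Cxcl11, -0.62 for Cxcl9, -0.89 for Ccl5, -1.56 for Cxcr2 and -1.11 for Cxcr6, none called, and the labels give no reason to leave that library out.

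Against normal skin, treated skin had 2 of 45 members called (4.44%), beside 20.7% of all genes. Both, Ccl5 and Cxcr4, were higher (4.44%, beside 7.57%), and 0 were lower (beside 13.2%), with 16 at an unadjusted p under 0.05. The median was 0.60 for ligands and 0.62 for receptors, beside -0.06 for all tested genes. Cxcl9 was next, at 3.19 ± 1.02 (adjusted p = 0.0505), with all treated libraries above normal skin. Without treated replicate 1 the count was 3 (beside 22.5% of all genes), with Ccl5 at 1.48 ± 0.30 (adjusted p = 0.0129), Cxcr4 at 1.26 ± 0.29 (adjusted p = 0.0176) and Cxcl9 at 1.72 ± 0.52 (adjusted p = 0.0422). Without treated replicate 3 the count was 10 (beside 15.8%), and without normal replicate 3 it was 0 (beside 6.57%). Comparisons in this text share libraries, the normal ones, the fibrotic 20-week ones or the treated ones, so their results are not independent of each other.

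Genes around the chemokine system were read from 3 lists. Of 14 tested atypical receptors and chemokine-like ligands, 3 were higher (21.4%, beside 17.6% of all genes) and 3 lower (21.4%, beside 21.7%) at 6 weeks, shares near those of all genes. At 20 weeks 2 were higher (14.3%, beside 15.3%) and 3 lower (21.4%, beside 18.2%). The list is led by Ccrl1 (now Ackr4), which scavenges Ccl19 and Ccl21: it had 48.5, 50.5 and 66.7 FPKM in normal skin, 7.72, 7.58 and 9.34 at 6 weeks, 5.96, 12.6 and 4.76 at 20 weeks and 13.6, 26.3 and 23.6 in treated skin. The 4 groups did not overlap except for the 2 fibrotic ones, and Ccrl1 fell by 2.60 at 6 weeks and by 2.77 at 20 weeks, and rose by 1.39 in treated against fibrotic skin. Darc (now Ackr1), the chemokine-binding receptor of venules, fell by 1.43 and 1.65 and rose by 1.05 in treated skin. In treated against fibrotic skin 3 of the 14 were higher (21.4%, beside 4.45%) and 0 lower (beside 10.9%).

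Of 35 tested genes of chemokine receptor signalling, 14 rose (40.0%, beside 17.6% of all genes) and 4 fell (11.4%, beside 21.7%) at 6 weeks, among the former the leukocyte integrin chains Itgb2 (1.67) and Itgam (1.09) and the kinase Fgr (1.14). At 20 weeks 3 rose and 3 fell (8.57% each, beside 15.3% and 18.2%), and in treated against fibrotic skin 4 rose (11.4%, beside 4.45%) and 1 fell (2.86%, beside 10.9%). The list upstream of chemokine induction holds inducers and also inhibitors of NF-kB, such as Nfkbia and Tnfaip3, so a fall in it need not be that of an inducer. Of its 26 tested genes, 3 rose (11.5%, beside 17.6%) and 4 fell (15.4%, beside 21.7%) at 6 weeks, with Il1b the highest at 4.01. At 20 weeks 2 rose (7.69%, beside 15.3%) and 5 fell (19.2%, beside 18.2%). The median of this list was 0.09 at 6 weeks and 0.28 at 20 weeks, beside -0.05 and -0.04 for all tested genes. None of the 3 lists had a call between 20 and 6 weeks.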

How the data were processed

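Polyadenylated RNA of macrodissected skin was sequenced in paired-end runs of 101 cycles, per the labels' protocols. The authors deposited 1 table of FPKM values for 12 libraries. The submitters' processing notes name the mm10 build, TopHat2 (2.0.13), Bowtie2 (2.2.3) and Cufflinks (2.2.1), with no role. Also named are cutadapt 1.7.1, R 3.1.1, SAMtools 1.0 and FastQC 0.11.2. For the settings and the gene annotation, the entry is: not given in the sources used here. FPKM keeps no counts, so depth is unknown and no counting error is given.

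Of 23359 genes, the 13761 that reached 1 FPKM in 3 or more libraries were fitted in limma 3.58.1 (R 4.3.3) on log2(FPKM + 1), all 12 libraries in 1 fit with a mean per group and an intensity trend. The fit assumes alike spread in the 4 groups, although treated libraries spread more. Tests were 2-sided, with Benjamini-Hochberg adjustment over all tested genes in each of 5 comparisons. Exact permutation tests are left out, since with 3 libraries per group their smallest p is 0.1. The code was tested on simulated data.

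Library values are given for members called in any comparison or with a group mean of at least 5 FPKM, and up to 4 called genes are named per other list. Exceptions, chosen after their values were seen, were Cx3cr1, Csf3r, Cd8a, Cd3e, Cd3g, Ifng and the keratins, with library values of Il1b, Il1a, Tnf and Ccrl1. The results of some genes that this rule takes are not reported here, although the counts include them. The members and lists were chosen with earlier results of these data known. Locations were found for 57 members in GENCODE M21 and promoters for 42 in RefSeq, both on GRCm38.

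Alternatives were a pseudocount of 0.1, no filter, a minimum mean of 5 FPKM, median-of-ratios scaling, totals made equal without short RNAs and the muscle, hair shaft and cornified genes, a fit of the compared libraries alone, a replicate block, and each library left out in turn.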

Additional observations from a re-analysis of the deposited data

Results flagged for a closer look

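The receptor Cxcr6 moved to opposite sides of normal skin at the 2 fibrotic time points. Its 6-week libraries (2.83, 2.82 and 2.42 FPKM) were all below and its 20-week libraries (14.0, 11.8 and 12.3 FPKM) all above the normal ones (3.90, 3.37 and 5.84 FPKM). The log2 difference of 20 weeks minus 6 weeks was 1.89 ± 0.53 in limma, with an adjusted p of 0.118, so the difference did not pass the test in the fit of all 12 libraries.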

How the results depend on the processing

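Depth is unknown, each group has 3 libraries, and the members spread more than other genes, so a missed call does not show that values were alike. Of 49 calls over the 5 comparisons, 22 held under every alternative, 27 were lost under at least 1, and none changed sign. Leaving out each library in turn gave 17 to 23 calls at 6 weeks against normal skin (26 with all), 8 to 12 at 20 weeks against normal skin (17), 0 to 4 between 20 and 6 weeks (0), 0 to 20 in treated against fibrotic skin (4) and 0 to 10 in treated against normal skin (2). In this order 16 of 26 and 6 of 17 calls against normal skin held in every such fit.

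A filter at a mean of 5 FPKM left 13 calls at 6 weeks, of 28 members tested, and 12 at 20 weeks. A fit of the compared libraries alone gave 27 at 20 weeks against normal skin, 3 between 20 and 6 weeks, and 0 in both comparisons of treated skin. A pseudocount of 0.1 gave 7 in treated against normal skin. The shares of all genes called under these alternatives are not given here. Rescaling moved the median of all genes to -0.35 at 6 weeks and -0.32 at 20 weeks and to 0.24 in treated against fibrotic skin, where 6 members were called. The cause of these shifts was not tested.

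The replicate numbers showed no clear pairing of the libraries, though this check cannot exclude it. Deviations of same-numbered libraries from their group means correlated at -0.35 to 0.29. They were above 0.1 in 5 of 18 pairs, and 4 of 12 libraries were closest to their own number. With a replicate block the counts were 24, 19, 0, 4 and 4 in the order above.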
